A study of Homo sapiens with 9 samples.

Results

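The response of MP41 cells to a synthetic miR-16 was measured here at 24 h, as the value of each gene in the library labelled miR-16 24 h minus its value in the library labelled miR-CTR 24 h. These are 2 of the 9 samples of the series, and the 24 h comparison covers all 14839 genes of the deposited table. MP41 is a human uveal melanoma (UM) cell line, grown here as a single line, and poly(A) RNA was sequenced. The other samples are miR-CTR at 0, 6, 12 and 48 h and miR-16 at 6, 12 and 48 h. The mimics were transfected at 66 nM, and the 0 h sample also carries the control mimic label, although no text states what the cells had received by then. The time of each column was read from a code in its header, which skips 1 number and which no label explains, so the reading of the column used here as 24 h is an inference.

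Each condition is 1 library. No p-value can therefore be given, and each error below is a counting standard error, which covers the sampling of reads and not the variation between cultures. Values are log2(normalised reads + 1), and a logFC is a difference of 2 such values. A gene was called lower or higher when its logFC passed 0.5 in size, a 1.41-fold change. Because a second culture might differ, the logFC at 12 and 48 h, which came from other libraries, are given beside those at 24 h.

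A microRNA is the guide of an Argonaute protein. Bases 2 to 8 of the guide, the seed, pair with the 3′ untranslated region (3′UTR) of mRNAs, and the paired mRNA is translated less and loses its poly(A) tail, which leads to its decay. miR-16 belongs to a family of microRNAs that share 1 seed and that is known for restraining the cell cycle, with D-type cyclins among its established targets. Its sequence and those of 2 relatives are shown from RefSeq (GRCh38.p14), 5′ to 3′, with the seed in capitals.
hsa-miR-16-5p: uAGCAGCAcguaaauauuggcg
hsa-miR-15a-5p: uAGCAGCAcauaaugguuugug
hsa-miR-15b-5p: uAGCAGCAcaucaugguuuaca
The oligonucleotide table of the study lists the biotinylated forms of both mimics. The row named for the control holds the miR-16 sequence, and the row named for miR-16 holds another guide, so the names of the 2 rows appear to be exchanged.
Other guide: uUGUACUAcacaaaaguacug
This other guide was treated below as a candidate sequence of the control mimic. Whether the miR-CTR that was transfected for sequencing has this sequence is not given in the sources used here.

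The recovered depth was similar on both sides, at 21440000 reads in miR-16 24 h and 21670000 in miR-CTR 24 h, within a range of 20250000 to 27350000 over the 9 libraries. The markers of the lineage were present and close between the mimics: the values of MITF were 13.35 with miR-16 and 13.40 with miR-CTR, and those of PMEL, a melanosome protein, were 16.80 and 16.67. Of 21 markers of immune, endothelial, epithelial, fibroblast and blood cells, 5 were in the table, and their summed normalised reads were 663 with miR-16 and 811 with miR-CTR, most of it from COL1A1 (8.57 and 8.86) and LUM (7.47 and 8.11), while markers such as PTPRC and PECAM1 were not among the measured genes. Their part in the results was not tested. The miR-16 24 h library stood apart from the others. RN7SL2, the RNA of the signal recognition particle, had a value of 10.15 in it and between 6.07 and 8.28 in the others. This library also held the fewest genes under a value of 4, at 215, against 278 to 362 in the others. The part of these features in the calls was not tested.

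At 24 h, 781 genes were lower with miR-16 (5.26% of all genes) and 1075 were higher (7.24%). Most of these calls lay among weakly expressed genes: in the 25% of genes with the lowest mean over the 9 libraries (mean up to 7.02), 393 were lower and 736 higher, and the median counting error of a logFC there was 0.31. Above this level, with a median error of 0.07, 388 of 11128 genes were lower (3.49%) and 339 higher (3.05%), and the counting interval (95%) of each of them excluded 0. With errors this small, nearly any gene past the threshold has an interval that excludes 0, so this is not a separate check of the calls. With the mean of miR-16 12 and 48 h in place of the miR-16 24 h library, 393 were lower and 357 higher. Between control libraries alone, miR-CTR 24 h against the mean of miR-CTR 12 and 48 h, 26 of the same genes were lower (0.234%) and 26 higher (0.234%). That yardstick averages 2 libraries on one side, so it is somewhat narrower than a difference of 2 single libraries. Changes were moderate in size, as 22 genes above this level were lower by more than 1 and 23 were higher by more than 1.

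**Figure D1:**
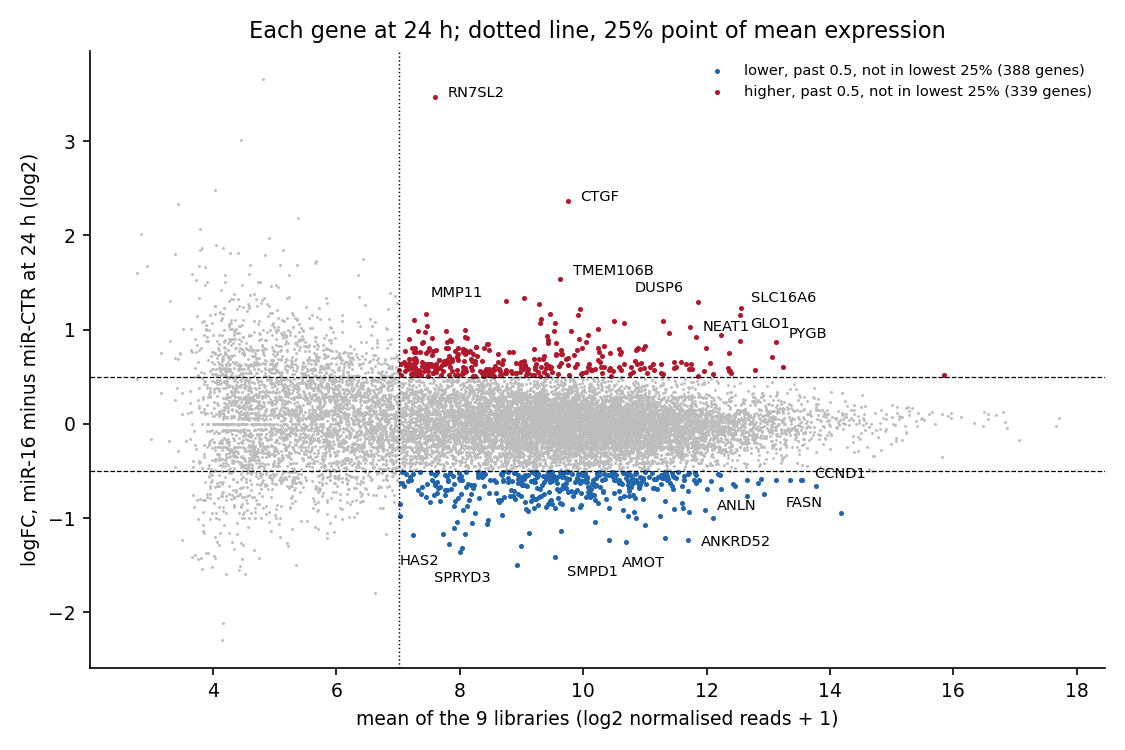
The logFC of each of 14839 genes at 24 h (y axis, log2) is plotted against its mean over the 9 libraries (x axis, log2 of normalised reads + 1), with dashed lines at 0.5 in size. Blue and red points are the 388 lower and 339 higher genes to the right of the dotted line, and the grey cloud widens to the left of it, where counting error was larger.

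The direction of these genes was shared by the neighbouring times. Of the 388 lower genes, 368 were also below 0 at both 12 and 48 h, which 34.3% of the 11128 genes were, and 72 passed 0.5 at 12 h and 275 at 48 h. Of the 339 higher genes, 306 were above 0 at both times, against 31.4% of the 11128 genes, and 77 passed 0.5 at 12 h and 230 at 48 h. The median logFC of the lower genes was -0.36 at 12 h, -0.63 at 24 h and -0.66 at 48 h. Read from the other side, the 24 h calls held 75.8% of the 95 genes called lower at 12 h and 32.4% of the 848 called lower at 48 h.

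The largest falls were in SPRYD3, SMPD1, SLC2A3, HAS2, ARL2, DYNC1I1, AMOT, RRAGD, ANKRD52, TACC1, UBE2V1P2, BVES, CHIC1, KLHDC8B and DNAJB4, with logFC from -1.50 to -1.14. SPRYD3 had 266 reads in miR-16 24 h and 754 in miR-CTR 24 h, which gave values of 8.13 and 9.63 and a logFC of -1.50 ± 0.10, or 2.83-fold lower. Its value was 9.30 at 0 h, between 9.09 and 9.87 in the other control libraries and between 7.99 and 8.67 in the other miR-16 libraries, so the 2 mimics did not overlap. SMPD1, the acid sphingomyelinase of the lysosome, had values of 8.62 with miR-16 and 10.03 with miR-CTR, a logFC of -1.41 ± 0.09. Its control libraries lay between 9.73 and 10.37, all above the 4 miR-16 libraries, which lay between 8.53 and 9.66. ARL2, a small GTPase of the tubulin folding pathway, had values of 8.20 and 9.50 (logFC -1.30 ± 0.10). AMOT, the angiomotin that binds YAP, had values of 10.01 and 11.26 (logFC -1.25 ± 0.05), and its miR-16 libraries again lay below all control libraries, from 10.72 at 6 h to 9.73 at 48 h. ANKRD52, a regulatory subunit of the phosphatase that acts on Argonaute, was among the more abundant of these mRNAs, with values of 10.95 and 12.18 (logFC -1.23 ± 0.04). DNAJB4, a chaperone of the HSP40 family, had values of 8.89 and 10.03 (logFC -1.14 ± 0.08).

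In all 15 genes the logFC was negative at each of the 4 times, and it passed -0.5 in 12 of them at 12 h and in 15 at 48 h. Against the 0 h library, 12 of the 15 were lower by more than 0.5 with miR-16. The exceptions were HAS2, a hyaluronan synthase, SLC2A3, the glucose transporter GLUT3, and DYNC1I1, and in each of them the control stood above 0 h. HAS2 had a value of 6.95 at 0 h, 7.52 in miR-16 24 h and 8.84 in miR-CTR 24 h. SLC2A3 had a value of 7.68 at 0 h, 7.43 in miR-16 24 h and 8.79 in miR-CTR 24 h. UBE2V1P2 is a processed pseudogene, and its reads may belong to its parent gene.

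The largest rises were in RN7SL2, CTGF, TMEM106B, SLC16A6P1, MMP11, DUSP6, CAV2, SLC16A6, NDN, C10orf10, RPL13AP25, ZDHHC20, GLO1, NUP37 and LOXL3, with logFC from 3.47 to 1.10. CTGF (CCN2), a matricellular protein induced by YAP, had values of 10.70 in miR-16 24 h and 8.34 in miR-CTR 24 h, a logFC of 2.36 ± 0.09. Its value at 0 h was 10.67, so the miR-16 library stood 0.03 above 0 h and the control library 2.33 below it (miR-CTR minus 0 h, -2.33). TMEM106B, a protein of the lysosomal membrane, showed the same form, with 10.22 with miR-16, 8.68 with miR-CTR and 10.16 at 0 h. GLO1, the glyoxalase that detoxifies methylglyoxal, had 7129 reads in miR-16 24 h and 3212 in miR-CTR 24 h, with values of 12.87 and 11.72 against 13.20 at 0 h (logFC 1.15 ± 0.03). Its 5 control libraries descended from 13.20 at 0 h to 12.48, 12.01, 11.72 and 11.73, while the 4 miR-16 libraries stayed between 12.86 and 13.11. DUSP6, a phosphatase that inactivates ERK, moved on both sides of 0 h: 12.59 with miR-16 and 11.30 with miR-CTR, against 12.02 (logFC 1.29 ± 0.03). MMP11, a matrix metalloprotease, had values of 9.50 and 8.20, against 8.65 at 0 h.

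Of these 15 rises, 14 passed 0.5 at 48 h and 11 at 12 h, while RN7SL2 was negative at the other 3 times. Against 0 h, 12 of the 15 were lower by more than 0.5 in miR-CTR 24 h, and 6 were higher by more than 0.5 in miR-16 24 h. SLC16A6P1 is a pseudogene of SLC16A6, a monocarboxylate transporter family member, and both were higher (logFC 1.33 and 1.23). How reads that fit both copies were counted is not given in the sources used here, so the split between them is uncertain. The same holds for the ribosomal protein pseudogene RPL13AP25.

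**Figure D2:**
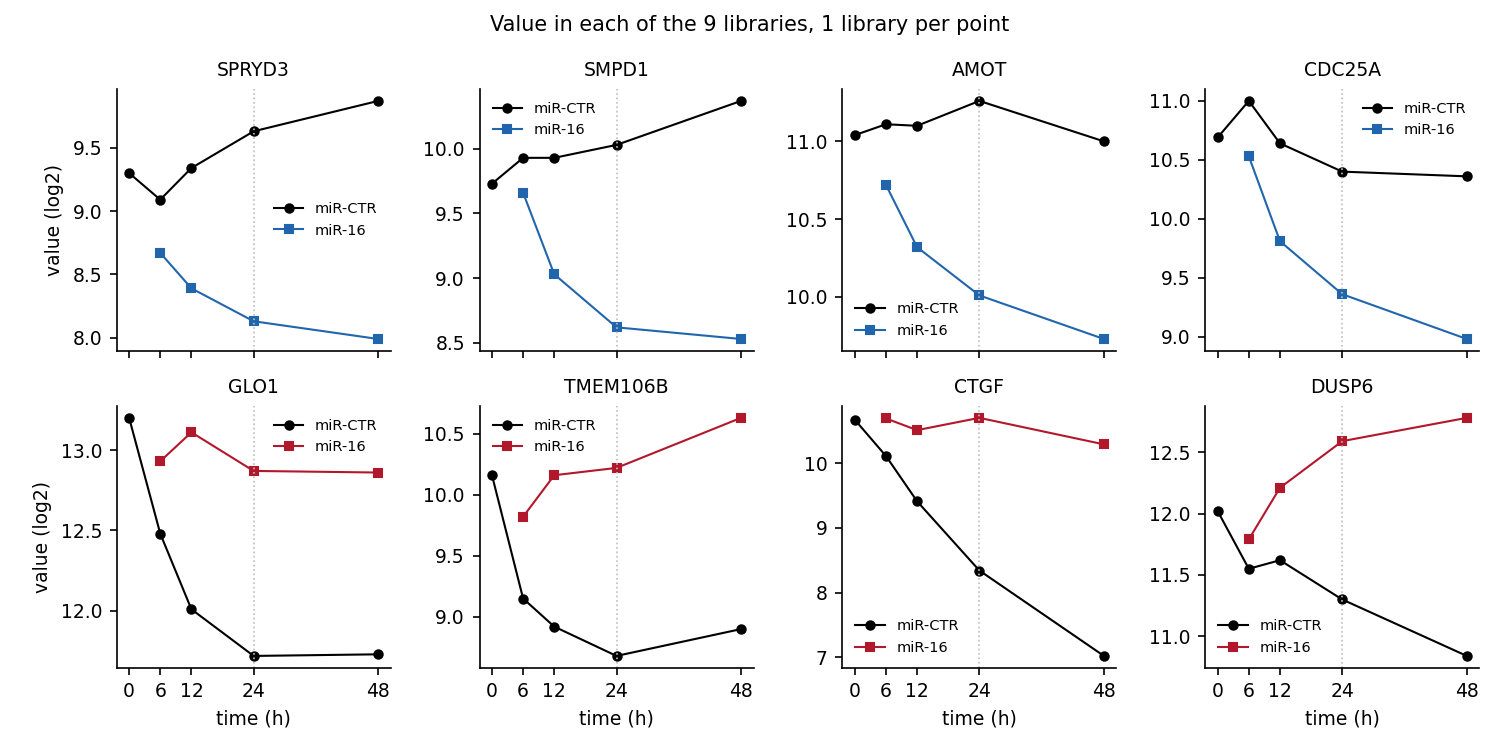
The log2 value of 4 lower genes (top) and 4 higher genes (bottom) is plotted for the 9 libraries against time in h, with miR-CTR in black, miR-16 in colour and 1 library per point. In the top row the miR-16 line lies below the control line at every time, and for GLO1, TMEM106B and CTGF the miR-16 line stays closer to the 0 h value than the control line, which descends.

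The called genes differed in the same way from the 0 h library as a set. Among the 388 lower genes, the median of miR-16 24 h minus 0 h was -0.51 and that of miR-CTR 24 h minus 0 h was 0.18. Among the 339 higher genes, the median of miR-16 minus 0 h was 0.22 and that of miR-CTR minus 0 h was -0.44, and 149 were lower than at 0 h by more than 0.5 in the control, against 5.54% of the 11128 genes. Since the miR-CTR 24 h library enters both the call and this count, the libraries that the call did not use were also read. In the higher genes miR-CTR minus 0 h had a median of -0.25 at 12 h and -0.39 at 48 h, and miR-16 minus 0 h had 0.05 and 0.27. In the lower genes miR-16 minus 0 h had a median of -0.25 at 12 h and -0.50 at 48 h, and miR-CTR minus 0 h had 0.10 and 0.14. With 1 library at 0 h, all these differences share its error.

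**Figure D3:**
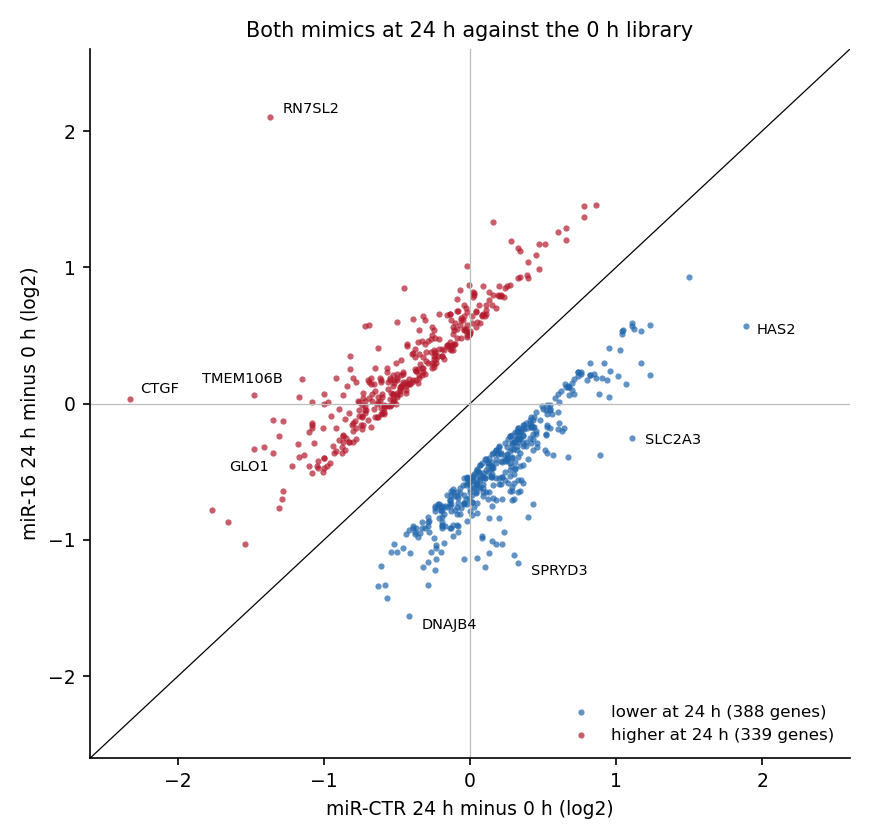
For the 388 lower (blue) and 339 higher (red) genes, miR-16 24 h minus 0 h (y axis, log2) is plotted against miR-CTR 24 h minus 0 h (x axis, log2), with a diagonal where both mimics are equal. The blue points centre at 0.18 on the x axis and -0.51 on the y axis, and the red points at -0.44 and 0.22.

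The 3′UTRs of the lower genes were rich in matches to the miR-16 seed. A match of 7 or 8 bases was read as the complement of bases 2 to 8 (TGCTGCT, 7mer-m8), of bases 2 to 7 followed by A (GCTGCTA, 7mer-A1) or of both (8mer) on the mRNA strand, using for each of 12035 protein-coding genes its longest 3′UTR in the annotation, and 29.3% of them held at least 1. Among genes above the lowest 25%, 257 of 368 lower genes held such a match (69.8%, Wilson interval 65.0 to 74.3%), against 2759 of 9565 genes that were not called (28.8%, 27.9 to 29.8%) and 62 of 275 higher genes (22.5%, 18.0 to 27.8%). These intervals describe the number of genes and not repeated cultures. Over all genes, those with an 8mer (602) had a median logFC of -0.19 at 24 h, those with a 7mer-A1 (441) of -0.09, those with a 7mer-m8 (2482) of -0.07, those with a 6mer only (2107) of 0.00 and the remaining 6403 of 0.02. It followed the number of matches as well: 0.02 without any, -0.07 with 1, -0.11 with 2 and -0.14 with 3 or more. Overlapping matches were each counted, so these numbers need not be separate sites. Within 4 classes of 3′UTR length, genes with a match had medians between -0.11 and -0.07 and genes without one between -0.01 and 0.05, so the difference was present in each class. A match is a description of the sequence and does not show that the mRNA was bound.

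Of the 15 largest falls, 14 had an annotated 3′UTR and 12 held a match. The windows shown here, with the match in capitals, are from genes that carried large falls or established targets of the family (GENCODE 29 transcripts on GRCh38, mRNA strand, coordinates of the window shown).
SPRYD3 (chr12:53065357-53065379, minus strand): ttgtgtgaaccagtTGCTGCTgt
SMPD1 (chr11:6394653-6394675, plus strand): tgaaaaagcccaaaTGCTGCTgt
ARL2 (chr11:65021962-65021985, plus strand): ccaccccagcctgcTGCTGCTAct
AMOT (chrX:112775602-112775624, minus strand): ggatttccttttaaTGCTGCTtt
DNAJB4 (chr1:78016699-78016722, plus strand): atcaccttctgaaaTGCTGCTAta
CDC25A (chr3:48158262-48158285, minus strand): tgtggtactggggcTGCTGCTAtt
CCND1 (chr11:69653301-69653324, plus strand): tctttcacattgttTGCTGCTAtt
WEE1 (chr11:9589132-9589155, plus strand): ttgccttgtgaattTGCTGCTAtt
ARL2 held 5 matches in a 3′UTR of 329 bases, and SPRYD3 held 4 in 1516 bases, with overlapping matches each counted. In the ARL2 window shown, the marked match overlaps another. RRAGD and ANKRD52 held a 6mer only.

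The higher genes were rich in matches to the other guide instead. With its complement (TAGTACA, 7mer-m8, and AGTACAA, 7mer-A1) searched in the same way, 14.6% of the 12035 genes held a match. Above the lowest 25%, this was 110 of 275 higher genes (40.0%, 34.4 to 45.9%), 1391 of 9565 uncalled genes (14.5%, 13.9 to 15.3%) and 43 of 368 lower genes (11.7%, 8.79 to 15.4%). Among the higher genes that stood more than 0.5 below 0 h in the control, the share was 73 of 139 (52.5%), and among the other higher genes 37 of 136 (27.2%). That split uses the miR-CTR 24 h library, which also enters the call. With the lowest 25% included, 162 of 635 higher genes held a match (25.5%), against 1532 of 10864 uncalled genes (14.1%). The median of miR-CTR 24 h minus 0 h was -0.17 in genes with an 8mer to this guide, -0.12 with either 7mer and 0.02 with none. The miR-16 24 h library was also lower than 0 h in these genes, with a median of -0.09 for an 8mer, -0.12 for a 7mer-m8 and -0.07 for a 7mer-A1, against 0.00 for none. The median logFC between the mimics was 0.06 for an 8mer, -0.01 for a 7mer-m8, 0.05 for a 7mer-A1 and -0.01 for none. Within the 4 classes of 3′UTR length, miR-CTR 24 h minus 0 h had medians between -0.17 and -0.10 in genes with a match. Genes without one had medians between 0.00 and 0.03. The share of higher genes with a match was not split by length. The windows of 3 higher genes are shown, since these are among the rises in which the control fell.
GLO1 (chr6:38676369-38676392, minus strand): acactagaagtcttTAGTACAAaa
TMEM106B (chr7:12232237-12232260, plus strand): tgatacttcccctaTAGTACAAta
CAV2 (chr7:116506373-116506396, plus strand): agacagttttgcttTAGTACAAta
Of the 15 largest rises, 12 had an annotated 3′UTR, 7 held a match to this guide and 1, SLC16A6, a match to miR-16. DUSP6, MMP11 and C10orf10 held none to it.

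**Figure D4:**
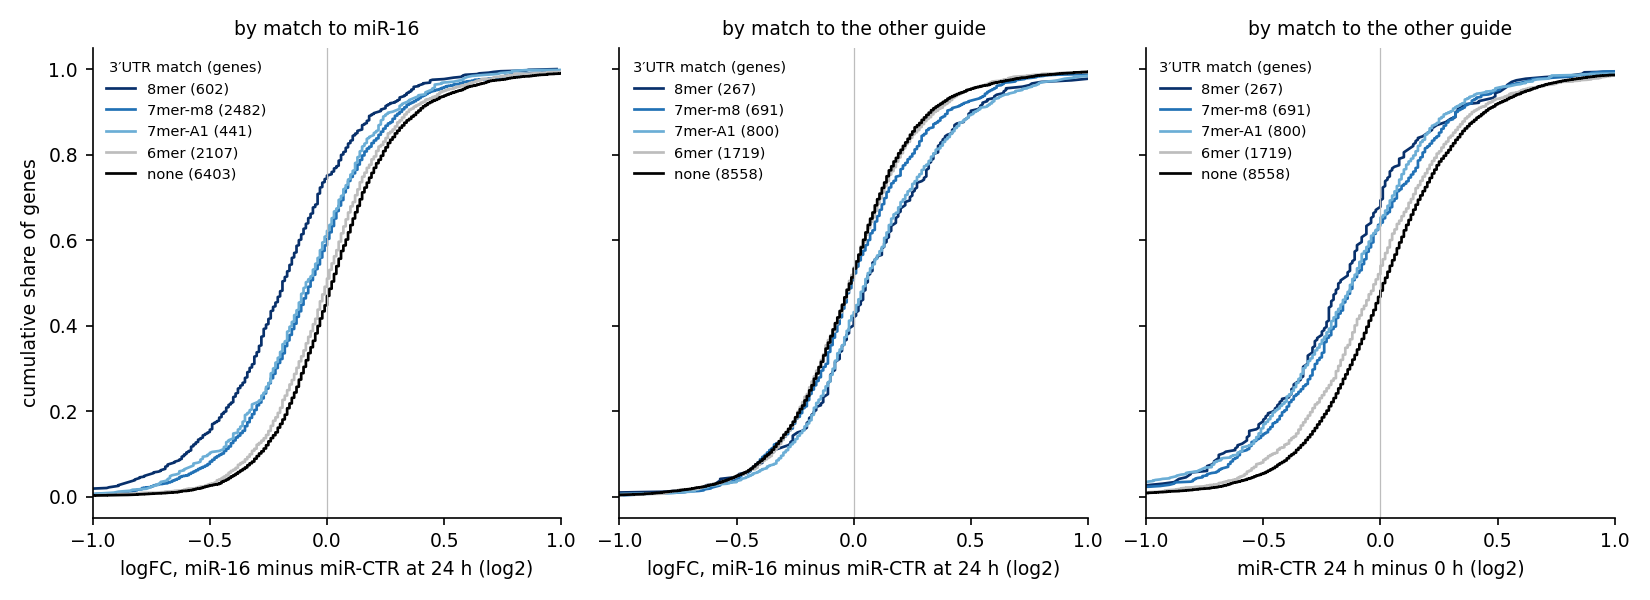
Cumulative shares of genes (y axis) are drawn for the logFC at 24 h by 3′UTR match to miR-16 (left) or to the other guide (middle), and for miR-CTR 24 h minus 0 h by match to the other guide (right), with x axes in log2 and the number of genes in each class in the legend. In the left panel the 8mer curve, with a median of -0.19, lies left of the curve without a match (0.02), and in the right panel the 8mer curve has a median of -0.17 and the curve without a match 0.02.

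Gene lists were then described by how many members passed 0.5, beside the 5.26% lower and 7.24% higher of all genes and their median logFC of 0.00. Among the 11128 more strongly expressed genes these shares were 3.49% and 3.05%, the closer comparison for lists without weakly expressed members. The list of mRNAs reported as targets of the miR-15/16 family had the lowest median of the 47 lists, with 12 of 46 measured members lower, 2 higher, 37 below 0 and a median of -0.34. It includes AMOT, which the study picked as a target partly from its decrease in this same time course. The list is therefore not wholly independent of these data. Of the 46, 44 held a 7- or 8-base match. CARD10, a scaffold of NF-kB signalling, had values of 7.91 with miR-16 and 8.97 with miR-CTR (logFC -1.06 ± 0.12). YAP1, the Hippo effector, lay at the threshold, with values of 12.10 and 12.60 (logFC -0.50 ± 0.03). BCL2, the apoptosis inhibitor, had an 8mer and did not differ by more than its error: 8.58 and 8.55 (logFC 0.03 ± 0.11). The 2 higher members were JUN (7.99 and 7.48) and HMGA2 (10.45 and 9.88).

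Several genes of cell cycle entry were lower. In the list of G1 cyclins, CDKs and CDK inhibitors, 5 of 18 members were lower, none was higher and 16 were below 0, with a median of -0.30. CDC25A, the phosphatase that activates CDK2, had 625 reads with miR-16 and 1286 with miR-CTR, and values of 9.36 and 10.40 (logFC -1.04 ± 0.07). CCND3 had values of 8.91 and 9.76 (logFC -0.85 ± 0.08), CCNE2 of 9.49 and 10.24 (logFC -0.75 ± 0.07) and CCND1, the most abundant of them, of 13.27 and 13.87 (logFC -0.60 ± 0.02). CCNE1, a cyclin of the G1 to S transition, remained short of the threshold (7.59 and 8.05, logFC -0.46 ± 0.14). The fifth lower member, CDKN2D, was weakly expressed, with 76 and 109 reads (logFC -0.51 ± 0.21). CDK6, the partner of the D-type cyclins, had a logFC of -0.30 ± 0.07, but its values were 10.96 at 0 h, 9.87 in miR-16 24 h and 10.17 in miR-CTR 24 h, so both mimics lay below 0 h. Its 3′UTR held 2 matches to miR-16 and 4 to the other guide. Among the RB, E2F and MYB factors, 4 of 21 were lower and none higher (median -0.21), with MYBL1 at 8.73 and 9.61 (logFC -0.88 ± 0.09) and E2F7 at 8.44 and 9.07 (logFC -0.63 ± 0.10). MYB itself was among the weakly expressed genes, at 5.28 and 6.39 (logFC -1.11 ± 0.28).

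The genes of DNA replication and of mitosis mostly had a small negative logFC at 24 h, and a larger one at 48 h. For replication, 40 of 47 members were below 0 at 24 h (48.4% of all genes were), 2 passed 0.5 as lower and 1 as higher, and the median was -0.20 there, beside -0.10 at 12 h and -0.75 at 48 h. With the mean of miR-16 12 and 48 h in place of the miR-16 24 h library it was -0.36. For mitosis and cytokinesis, 52 of 59 were below 0, 3 were lower and none higher, and the median was -0.25, beside -0.06 at 12 h and -0.79 at 48 h. The lower members at 24 h were 4.26% of the replication list and 5.08% of the mitosis list. All members were among the 11128 more strongly expressed genes, of which 3.49% were lower, so these calls alone do not clearly set the lists apart. At 48 h, 35 of 47 and 49 of 59 were lower by more than 0.5, against 848 of the 11128 genes. A match to miR-16 was present in 12.8% of the replication list and 20.3% of the mitosis list, against 29.3% of all genes. The members past the threshold included ANLN, the anillin of the cleavage furrow (11.27 and 12.18, logFC -0.91 ± 0.04), WEE1, the kinase that inhibits CDK1 (9.19 and 10.03, logFC -0.84 ± 0.08), ASPM, a spindle pole protein (logFC -0.60 ± 0.04), DTL, an adaptor for the degradation of CDT1 (10.83 and 11.47, logFC -0.64 ± 0.04) and MCM10, a replication initiation factor (logFC -0.52 ± 0.06). The single higher member was GMNN, geminin, with 11.06 with miR-16, 10.28 with miR-CTR and 11.45 at 0 h, and with a 7mer-A1 to the other guide. Of the DNA damage and repair list, 5 of 57 were lower and none higher (median -0.16), with FANCM, a translocase of the Fanconi anaemia pathway, at 8.84 and 9.66. CHEK1, the replication checkpoint kinase, had a logFC of -0.34 ± 0.05 at 24 h and -0.81 at 48 h.

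Among the motors and their tracks, the share of lower members was above that of all genes. Of 40 tubulins, kinesins and dyneins, 8 were lower (20%, against 5.26% of all genes and 3.49% of the 11128 more strongly expressed ones). Below 0 were 30 of them (75%, against 48.4% of all genes), and the median was -0.15. None was higher, which in so few genes cannot be told from the 3.05% of the 11128 genes. DYNC1I1, a dynein intermediate chain, had values of 7.26 with miR-16 and 8.53 with miR-CTR (logFC -1.27 ± 0.14). The kinesin KIF21A had 11.23 and 12.12 (logFC -0.89 ± 0.04), KIF5B, the heavy chain of conventional kinesin, 12.07 and 12.84 (logFC -0.77 ± 0.03), and KIF3B 10.49 and 11.17 (logFC -0.68 ± 0.05). The other lower members were KIF1B, DYNLL2, KIF1C and KLC2, at logFC of -0.58, -0.57, -0.54 and -0.52. A match to miR-16 was present in 21 of the 40.

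In the machinery through which microRNAs are made and act, 7 of 39 genes were lower and 2 higher, with a median of -0.07. DCP2, the decapping enzyme, had values of 10.09 and 11.07 (logFC -0.98 ± 0.05) and held a 6mer only. AGO1, an Argonaute protein, had 10.55 and 11.18 (logFC -0.63 ± 0.05) with 3 matches in its 3′UTR, and CNOT6L, a deadenylase, had 8.80 and 9.41 (logFC -0.61 ± 0.09) with 3. CNOT11, another subunit of the deadenylase complex, had a logFC of -0.65 ± 0.05, and TARBP2, DICER1 and DCP1A had -0.58, -0.56 and -0.51. The 2 higher members were PABPC1, the poly(A)-binding protein, at 16.10 and 15.58, and TNRC6C, a GW182 scaffold, at 9.35 and 8.84.

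In the Hippo pathway list, 2 of 26 members were lower (7.69%) and 1 was higher (3.85%). All 26 were among the 11128 more strongly expressed genes, of which 3.49% were lower and 3.05% higher. Shares that rest on so few genes cannot be told from these. AMOT was lower, as was the kinase LATS1 (8.53 and 9.18, logFC -0.65 ± 0.10), and WWTR1, which encodes the YAP relative TAZ, was higher (12.38 and 11.57, logFC 0.81 ± 0.03, 12.08 at 0 h). The median of the list was -0.04. Among 20 YAP output genes, 3 were higher and 1 lower (median 0.01). CYR61 (CCN1) had values of 9.77 with miR-16, 8.78 with miR-CTR and 10.55 at 0 h, so both mimics lay below 0 h and the control further. NT5E, the ecto-5′-nucleotidase CD73, had 8.63, 7.78 and 8.47, and the lower member CCDC80 had 7.30, 7.97 and 7.11.

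In the list of ERK feedback genes, more members were higher than lower. Of 19 members, 6 were higher and 2 lower, 14 were above 0 and the median was 0.37. This median was 0.17 with the mean of miR-CTR 12 and 48 h in place of the miR-CTR 24 h library, and 0.13 for miR-16 24 h against 0 h. Beside DUSP6, the ERK pathway inhibitors SPRY1 (9.06 and 8.38, logFC 0.68 ± 0.10) and SPRY4 (12.10 and 11.47, logFC 0.63 ± 0.04) were higher, as were PHLDA1 (13.19 and 12.62), MYC (12.66 and 12.10, logFC 0.56 ± 0.03) and the weakly expressed EGR1 (6.28 and 5.24). SPRY4 had 11.46 at 0 h and so stood above it with miR-16 alone. The lower members were SPRED1, a further inhibitor of this pathway (9.53 and 10.31, logFC -0.78 ± 0.07), with an 8mer to miR-16, and CCND1. Upstream, in the list of growth factor receptors, RAF, MEK and AKT, 3 of 40 were higher and none lower (median -0.14). They included NRAS (11.29, 10.72 and 11.65 at 0 h), which lay below 0 h with both mimics, and the weakly expressed PDGFRB, with 32 and 10 reads.

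Single members passed the threshold in several metabolic and signalling lists whose medians were within 0.1 of 0. Lower and higher members numbered 1 and 1 of 19 for glycogen and 1 and 1 of 33 for cholesterol and fatty acids. They numbered 2 and 1 of 21 for Rag GTPases and 2 and 1 of 34 for WNT. For TGF-beta and BMP they were 2 and 0 of 37, and for ATF4 and the unfolded protein response 2 and 0 of 34. Shares that rest on so few genes cannot be told from the 3.49% lower and 3.05% higher of the 11128 more strongly expressed genes. PYGB, the brain form of glycogen phosphorylase, had values of 13.45 with miR-16, 12.58 with miR-CTR and 13.26 at 0 h (logFC 0.87 ± 0.02). RRAGD, a GTPase that signals amino acid supply to mTORC1, had 9.74, 10.97 and 10.57 (logFC -1.23 ± 0.06), while LAMTOR3, of its lysosomal anchor, had 9.46, 8.87 and 10.16. RNF43, which removes WNT receptors from the cell surface, had 8.10, 9.12 and 7.89 (logFC -1.02 ± 0.11), and the secreted WNT antagonist SFRP1 had 12.69, 11.75 and 12.53 (logFC 0.94 ± 0.03). The activin receptor ACVR2B had 8.85 and 9.74 (logFC -0.89 ± 0.09). FASN, the fatty acid synthase, had 13.21, 13.80 and 13.25 (logFC -0.59 ± 0.02), and the amino acid transporter SLC7A5 had 13.40, 14.06 and 13.68 (logFC -0.66 ± 0.02). In the BCL2 family, the pro-apoptotic BMF was higher (10.73 and 9.97) and the anti-apoptotic BCL2L2 lower (10.29 and 10.93). Of its 16 members, 14 were neither lower nor higher, and the median was -0.04, so these calls do not show a shift of the family.

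Of 26 immediate early genes, 6 were higher and 1 lower (median 0.05), but above the lowest 25% of genes only JUN and MYC passed 0.5. In the list of collagens, laminins, matrix and integrins, 5 of 39 were higher, MMP11 among them, and 3 lower, HAS2 among them (median -0.04). Of 37 histone genes, 4 were higher and 1 lower, and none of these lay above the lowest 25%. Of 29 melanocyte genes, 1 was lower, MREG (9.86 and 10.40), none was higher and the median was 0.02. Of 20 UM driver and Gq signalling genes none passed 0.5, with SF3B1 at 13.43 and 13.38. All 20 were among the 11128 more strongly expressed genes, of which 3.49% were lower and 3.05% higher. A count of none among 20 cannot be told from these shares. Of 86 cytosolic ribosomal protein genes none passed 0.5, although 72 were above 0 and the median was 0.12, beside 0.01 with the mean of miR-CTR 12 and 48 h as the control. Mitochondrially encoded mRNAs had a median of 0.05, and p53 target genes a median of -0.02 with 1 of 27 lower. The transcripts that host miR-16 did not pass the threshold. SMC4, host of one copy on chromosome 3, had a logFC of -0.34 ± 0.04, and DLEU2, host of the other on chromosome 13 and weakly expressed, had -0.47 ± 0.27.

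**Figure D5:**
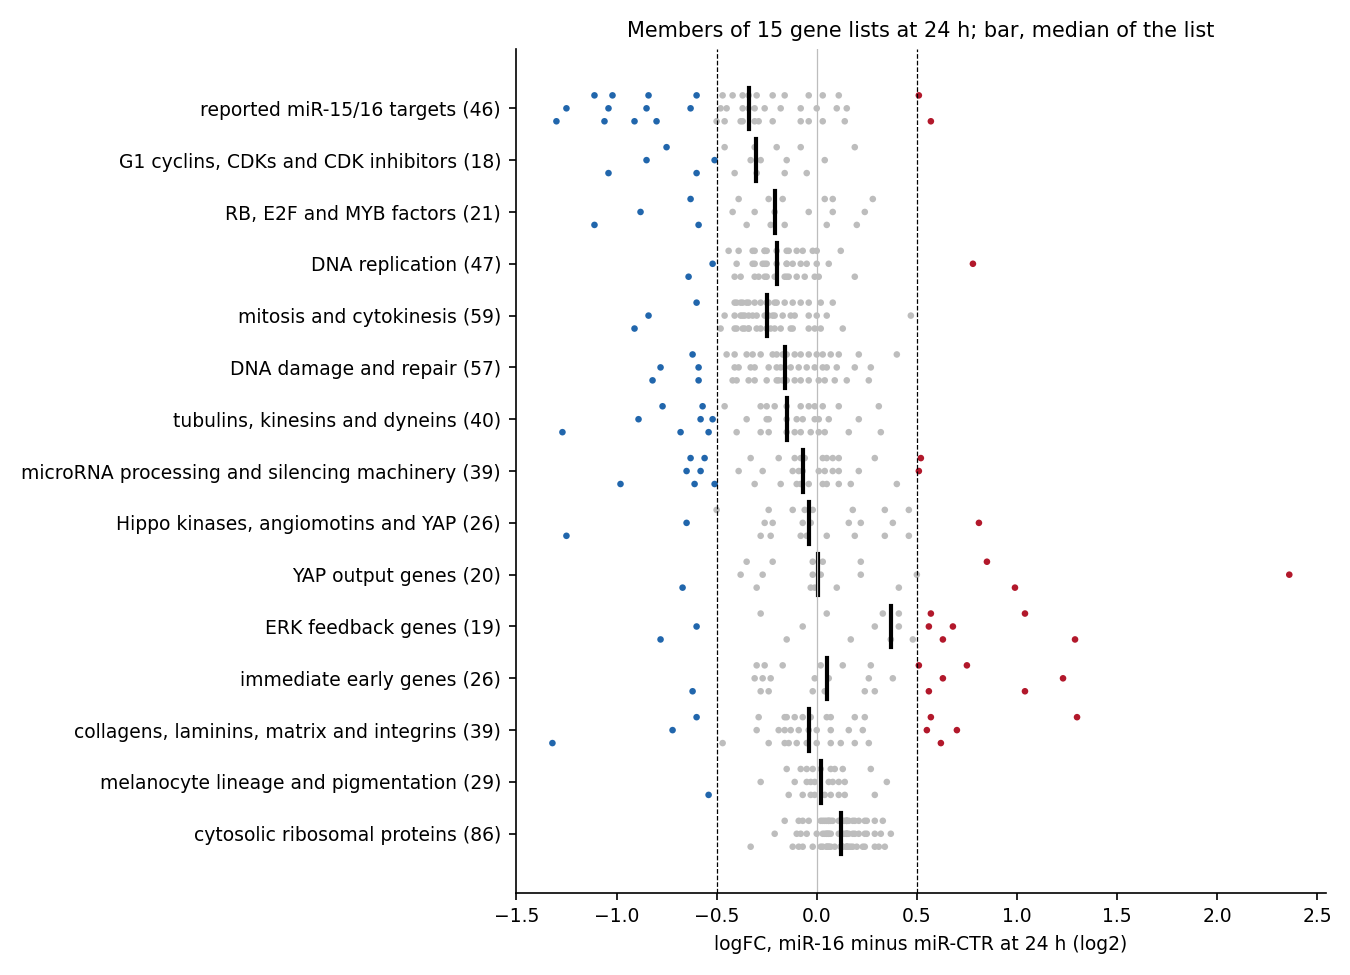
Each point is the logFC at 24 h (x axis, log2) of a member of 1 of 15 gene lists (rows, with the number of measured members), coloured where it passed 0.5 in size, and the bar is the median of the list. Bars run from -0.34 in the reported miR-15/16 targets to 0.37 in the ERK feedback genes.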

How the data were processed

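Poly(A) RNA of MP41 cells was sequenced in 9 libraries, 1 per condition. Per the submitters' processing notes, FastQC, STAR 2.4.0a, featureCounts and Subread 1.5.0-p3 were used with GRCh38. The annotation, the normalization tool and the filter on weak genes are not given in the sources used here. The deposited values are log2 values with 2 decimals. On the linear scale, after subtracting 1, values under 20 fell on whole multiples of a single step per library (for 96.7% or more of them), so they are log2(reads / size factor + 1), and the authors' normalised values were turned back into reads by dividing by the step. Reads were used for counting errors only, and no further normalization was applied.

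Genes were called past 0.5 in size on the log2(value + 1) scale, which understates changes of low genes. Symbols were joined to GENCODE 29 and RefSeq by symbol or older symbol (91.3% matched). The longest 3′UTR per gene was searched. Shares carry 95% Wilson intervals, which cover counting only. The calculations used Python 3.11.15 with pandas 2.3.3, numpy 2.4.6 and scipy 1.17.1 and were tested on simulated data.

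The comparison, the members of the 47 lists and the tests were chosen with earlier results of these data known. Genes were named by rule. Taken were the 15 largest changes each way above the lowest 25% of mean expression with a counting interval excluding 0. Each list gave up to 4 members past 0.5 (or up to 2 of the highest mean where none passed). A fixed set of reported targets and hosts, with PYGB and CTGF, was named whatever the values. The 5 largest changes each way with less than 0.2 in size at 12 and 48 h were added. HMGA2, CDKN2D, KIF1B, DYNLL2, KIF1C, KLC2, TARBP2, DICER1, DCP1A, PABPC1, TNRC6C, PHLDA1, EGR1, PDGFRB, RN7SL4P, RN7SL5P and the cell type markers were named beside their counts after their values were seen. The alternatives tried were another threshold, a filter, 4 scalings or pseudocounts, other libraries on either side and other match definitions. Some genes and sequences that the rule would name are not reported here.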

Additional observations from a re-analysis of the deposited data

Results flagged for a closer look

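RN7SL2, an RNA of the signal recognition particle, and the 7SL pseudogenes RN7SL4P and RN7SL5P were singled out because their difference at 24 h pointed the opposite way from that at 12 or 48 h, with both past 0.5 in size. With 1 library per condition, the difference between times was not tested. RN7SL2 had a logFC of 3.47 at 24 h, against -1.24 at 12 h and -1.0 at 48 h, and its values were 10.15 in miR-16 24 h and 6.68 in miR-CTR 24 h. RN7SL4P had a logFC of 3.66 at 24 h and -1.32 at 48 h, from 150 and 11 reads at 24 h. RN7SL5P had a logFC of 1.75 at 24 h and -0.60 at both 12 and 48 h, from 190 and 56 reads. These genes are near-identical copies, so the split of reads among them is uncertain.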

How the results depend on the processing

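Each value rests on 1 library per condition, so the variation between cultures is not known, and no paired analysis was possible because the 24 h comparison has 1 library a side and the result comes from no test. Depth limited the weakly expressed genes most. The number of genes lower at 24 h was 781, beside 80 at a threshold of 1, 388 without the lowest 25% of genes and 1268 with the 0 h library as the reference. The number higher was 1075, beside 174 and 339 under the first 2 of these and 692 with a pseudocount of 16. After quantile normalization 960 genes were lower and 931 higher. Above the lowest 25%, 367 were lower and 373 higher with equal library totals. Which direction held more genes thus depended on the scaling. Genes with a miR-16 match had a median logFC of -0.09, beside -0.08 after quantile normalization, -0.07 with equal library totals, -0.07 with the mean of miR-16 12 and 48 h, -0.19 for 8mers and -0.05 with 6mers. The share of lower genes with a match was 59.9%, beside 69.8% without the lowest 25% of genes, 54.4% after quantile normalization, 66.4% with a pseudocount of 16, 44.6% against 0 h, 16.8% for 8mers and 70.7% with 6mers. Of 82 named genes past 0.5, all kept their sign under centring, quantile normalization, equal totals and a pseudocount of 16. Centring and equal totals moved the median gene by only 0.0 and 0.01, so a gene past 0.5 could not change sign under them. A pseudocount of 16 adds the same amount to both libraries, so it cannot change a sign either. Under it 80 stayed past 0.5, and 80 did so after quantile normalization. Fewer stayed past 0.5 with other libraries: 71 with the mean of miR-CTR 12 and 48 h as the control, 69 with the mean of miR-16 12 and 48 h, and 45 against 0 h. Against 0 h, 68 kept their sign, and it changed for HAS2 (0.57), LUM (0.53), RNF43 (0.21), CCDC80 (0.19), MREG (0.12), RRAGB (0.09), SLC16A6 (-0.12), ZDHHC20 (-0.13), GLO1 (-0.33), NRAS (-0.36), GMNN (-0.39), LAMTOR3 (-0.70), CYR61 (-0.78) and JUN (-1.03). KCTD11 was at -0.01 with the mean of miR-CTR 12 and 48 h as the control, and RN7SL2 was at -0.01 with the mean of miR-16 12 and 48 h. In these 2 cases 1 library decides the value. Apart from the settings whose own construction changes the genes or matches counted, the cause was not tested.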

Other observations

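Beyond the lists above, 20 genes passed 0.5 at 24 h with a counting interval that excluded 0 while lying within 0.2 of 0 at both 12 and 48 h, 7 of them lower and 13 higher. The largest were modest, from -0.80 to 0.69. C20orf24 had values of 8.72 with miR-16 and 9.52 with miR-CTR at 24 h, and TPGS1, a subunit of tubulin polyglutamylase, had 7.71 and 8.39. RRAGB, a Rag GTPase like RRAGD, had 7.09 and 7.62, and the locus CTD-2006C1.2 had 6.85 and 7.45. Among the rises, JRKL had 8.71 and 8.02, KCTD11 7.29 and 6.65, and the ligand WNT3 7.58 and 6.95. No second library at 24 h was at hand to repeat any of these.

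NEAT1, the long RNA that builds nuclear paraspeckles, had its highest value of the 9 libraries in miR-16 24 h, at 12.50, against 11.37 to 11.99 in the others, and its logFC was 1.03 at 24 h but -0.39 at 12 h and -0.35 at 48 h. Above the lowest 25% of expression, 50 genes annotated as lincRNA had a median logFC of 0.15 at 24 h and 44 annotated as antisense 0.20, beside -0.02 for 10227 protein-coding genes. RN7SL2 and NEAT1 were thus both highest in the same library, and what they share was not tested. Among 155 ribosomal protein pseudogenes, 23 were higher (14.8%, against 7.24% of all genes) and 9 lower (5.81%, against 5.26%), but of the 77 above the lowest 25% only 5 were higher and 2 lower. Of 442 zinc finger ZNF genes, 24 were lower (5.43%) and 21 higher (4.75%), with a median of -0.04. Of the 300 above the lowest 25%, 6 were lower and 8 higher. Of 213 solute carriers, 18 were lower (8.45%) and 11 higher (5.16%), with a median of -0.03. Of the 183 above the lowest 25%, 16 were lower and 7 higher, beside 3.49% and 3.05% of the 11128 genes at that level.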
